A study of Mus musculus with 6 samples.

Results

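The killer cell lectin-like receptors (KLR) described here are 10 genes of the C-type lectin family: Klrd1, which encodes CD94, the NKG2 genes Klrc1, Klrc2, Klrc3 and Klrk1, and Klre1, Klri1, Klri2, Klrb1c and Klrg1. They were taken by gene symbol from the deposited count table, where all 10 were found, each once, among 49315 genes. They were measured by bulk RNA sequencing of total CD8+ T cells sorted from the tumor-draining lymph nodes of wild-type female C57BL/6J mice bearing B16F10 tumors, a mouse melanoma line (the labels' cell line field reads B26F10). All mice received 1 dose of HCW9218 under the skin, a complex of TGF-βRII and IL-15 by the series title, once tumors measured 50 to 100 mm3. The 3 monotherapy mice received nothing further, the 3 combination mice also received anti-PD1 into the peritoneum, and nodes were taken on day 5. Untreated mice were not analysed here, so each value for the combination is set against HCW9218 alone.

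CD94 forms a disulfide-linked pair with an NKG2 chain, and the chain decides the signal. CD94-NKG2A carries an inhibitory motif (ITIM) that recruits phosphatases such as SHP-1, while CD94-NKG2C and CD94-NKG2E signal through an adaptor, and all recognise the non-classical MHC molecule Qa-1, encoded by H2-T23. NKG2D, the product of Klrk1, is a separate activating homodimer for stress-induced ligands. Natural killer (NK) cells carry most of these receptors, and CD8+ T cells acquire several of them after activation.

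All 10 genes lie on chromosome 6. Coordinates are those of the deposited files, and all 10 equal GENCODE M21 on GRCm38. Klre1 (chr6:129577905-129585827) and Klrd1 (chr6:129591782-129598775) are on the plus strand. Klrk1 (chr6:129610323-129623864), Klrc3 (chr6:129639064-129643337), Klrc2 (chr6:129647496-129660689), Klrc1 (chr6:129666015-129678973), Klri1 (chr6:129697218-129717132) and Klri2 (chr6:129729041-129740484) follow on the minus strand with gaps of 4.2 to 18.2 kb. Klrb1c (chr6:128778485-128789215) lies 788.7 kb before Klre1, and Klrg1 (chr6:122270596-122282882) a further 6495.6 kb away.

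The 3 Klrc genes are close copies, and the stretches that set them apart are shown first because the results turn on telling them apart. The first 90 coding bases of GENCODE transcripts Klrc1-201, Klrc2-201 and Klrc3-201 differ most between the inhibitory and the activating genes. Capitals mark codons that match the ITIM pattern in frame.
Klrc1: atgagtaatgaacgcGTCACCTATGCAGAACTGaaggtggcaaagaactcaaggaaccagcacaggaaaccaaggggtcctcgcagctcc
Klrc2: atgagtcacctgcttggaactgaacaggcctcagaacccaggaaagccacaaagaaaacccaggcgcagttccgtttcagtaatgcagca
Klrc3: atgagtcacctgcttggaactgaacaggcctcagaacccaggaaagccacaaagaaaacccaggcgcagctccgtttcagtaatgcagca
The match in Klrc1 starts at codon 6. In the longest coding sequence of each member, the first 80 codons, which include the cytoplasmic tail of these type II membrane proteins, contained 1 match in Klrc1 and Klrb1c and 2 in Klri1 and Klrg1. Klrc2, Klrc3, Klrd1, Klrk1, Klre1 and Klri2 had 0 matches there. The matches started at codon 53 in Klrb1c, 16 and 47 in Klri1 and 5 and 54 in Klrg1. The extent of each tail was not determined, so a match in this window may lie outside the tail.

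The last 132 coding bases of the same transcripts encode part of the lectin domain and are nearly the same in all 3 genes. Capitals mark bases that differ from Klrc1, 2 of 132 in Klrc2 and 2 of 132 in Klrc3.
Klrc1: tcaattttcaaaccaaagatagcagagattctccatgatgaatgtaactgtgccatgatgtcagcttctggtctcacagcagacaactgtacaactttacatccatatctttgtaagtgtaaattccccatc
Klrc2: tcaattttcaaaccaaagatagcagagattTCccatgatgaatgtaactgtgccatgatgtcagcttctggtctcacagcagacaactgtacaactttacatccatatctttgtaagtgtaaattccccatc
Klrc3: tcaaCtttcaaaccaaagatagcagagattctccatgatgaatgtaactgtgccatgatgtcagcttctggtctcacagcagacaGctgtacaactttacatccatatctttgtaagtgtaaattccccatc
Over the aligned coding bases Klrc1 and Klrc2 were 87.2% identical, Klrc1 and Klrc3 85.5%, and Klrc2 and Klrc3 95.9%. Of the distinct 50-base stretches of Klrc1 transcripts, 36.6% also occur in Klrc2, and 14.6% of its 100-base stretches do. For Klrc3, 31.1% of 50-base and 16.0% of 100-base stretches occur in Klrc2. The treatment of reads with several matches is not given in the sources used here, so the split of reads among the 3 Klrc genes is uncertain. Klrd1, Klrk1 and Klrg1 shared 0 of their 50-base stretches with any other gene, Klre1 0.308%, Klri1 5.83% and Klri2 2.77%. Klrb1c shared 17.0%, most of it with Gm44511, which overlaps it on the same strand.

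With the combination, Klrc1, encoding the inhibitory chain NKG2A, and Klre1, encoding a chain that pairs with the KLRI receptors, rose. Klrc1 had a fold change of 3.94 and Klre1 of 3.14, while Klrd1, encoding the partner that NKG2A needs, had 1.25 and did not pass the test. Of the 10 members 9 had enough counts to be tested, 2 rose, 0 fell and 7 did not pass, at a Benjamini-Hochberg adjusted p under 0.05 in edgeR's quasi-likelihood test. Across all 15142 tested genes, 0.951% rose by this rule and 0.132% fell. All 9 tested members had a log2 fold change above 0, against 49.9% of tested genes, with a median of 1.12, against -0.00 over all tested genes. In 6 of the 9 the combination libraries all lay above the monotherapy libraries and in 0 below, against 7.17% and 7.54% of tested genes. An unadjusted p under 0.05 was reached by 6 of the 9 with a higher and by 0 with a lower level, against 4.61% and 3.39% of tested genes. Klri1 and Klrc3 reached the level of the count filter in 2 monotherapy and 3 combination libraries, so they were tested through the combination group. Klri1 enters each of these counts and Klrc3 the count above 0, so neither lends them support. The calls for Klrc1 and Klre1 ended when any 1 of the monotherapy libraries, or combination replicate 2, was dropped. In these 4 fits 0 members passed, beside 0.165%, 0.324%, 0.231% and 0.436% of all genes called higher. Klrc1 and Klre1 also passed with RLE scaling, with a filter at a mean of 1 CPM, in limma-voom and without combination replicate 1, beside 0.977%, 1.12%, 0.819% and 1.04% of genes called higher. Klrc2 joined them with upper quartile scaling, with no count filter, in DESeq2, with the replicate number as a block and without combination replicate 3. In those fits 0.971%, 1.04%, 1.27%, 1.53% and 1.58% of genes were called higher. In bulk RNA a larger share of cells that carry a receptor and more transcript per cell cannot be told apart.

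**Figure D1:**
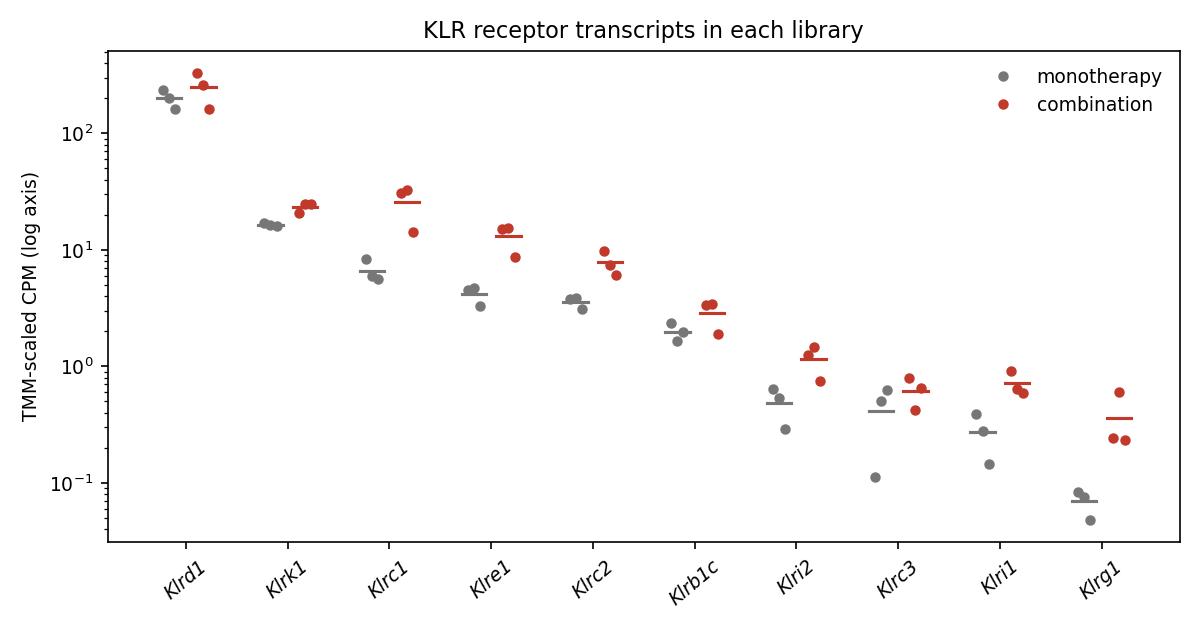
Level in CPM (scaled by TMM factors, log axis) of each receptor in the 3 monotherapy libraries (grey) and the 3 combination libraries (red), with the group mean as a bar, ordered by the monotherapy mean. The groups overlap for Klrd1, Klrb1c and Klrc3 and are apart for Klrk1, Klrc1, Klre1, Klrc2, Klri2, Klri1 and Klrg1.

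Levels can be compared between genes only per length. CPM are the counts of a gene per 1e+06 counts of its library, scaled by TMM factors. In CPM per kilobase of annotated exon, Klrd1 was first in monotherapy at 156 ± 29.5 (SD, n = 3), followed by Klrc1 at 3.32 ± 0.740, Klrk1 at 2.29 ± 0.0495 and Klre1 at 1.19 ± 0.214. Each of these lay apart from the next in all 3 libraries. Klrb1c, Klrc2 and Klrc3 followed at 0.672, 0.616 and 0.565 and overlapped with their neighbours in this order, and Klri1, Klri2 and Klrg1 came last at 0.324, 0.125 and 0.0490. In the combination Klrd1 at 195 ± 65.9 and Klrc1 at 13.1 ± 5.08 kept the first places. Klre1 followed at 3.74 ± 1.08 and overlapped with Klrk1 at 3.28 ± 0.320, and Klrc2 came next at 1.34 ± 0.324. The order depends on the annotated exon length, 7183 bases for Klrk1 and 1984 for Klrc1. Not divided by length, Klrk1 had a mean of 16.5 CPM in monotherapy and Klrc1 6.59.

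The shared chain came first in abundance and did not pass the test. Klrd1 had 237, 200.0 and 161 CPM in monotherapy replicates 1, 2 and 3 and 329, 258 and 161 CPM in the combination. The groups overlap, since combination replicate 3 lies at the bottom of the monotherapy range. The log2 fold change was 0.32 ± 0.25 (SE), with a 95% interval of -0.24 to 0.88 (edgeR adjusted p = 0.897). It passed in 1 of 14 other settings, without combination replicates 2 and 3, where it was 0.72 (edgeR adjusted p = 0.0242; 0.0242 to 1.00 over all settings).

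The inhibitory chain had the largest estimated log2 fold change among the tested members. Its 95% interval overlaps those of other members, such as Klre1 (1.09 to 2.22 in log2). Klrc1 had 8.27, 5.92 and 5.57 CPM in monotherapy and 31.1, 32.5 and 14.3 CPM in combination replicates 1, 2 and 3, or 231 to 297 counts against 554 to 1231. All combination libraries lie above all monotherapy libraries, and combination replicate 3 lies well below the other two. The means were 6.59 ± 1.47 and 26.0 ± 10.1 CPM (SD, n = 3 each). The log2 fold change was 1.98 ± 0.30 (SE; edgeR adjusted p = 0.0161), and its 95% interval corresponds to 2.46-fold to 6.32-fold. Over 14 other settings it stayed between 1.80 and 2.27 and passed in 10, with adjusted p from 9.98e-22 (edgeR, no count filter) to 0.0964. It did not pass without monotherapy replicates 1, 2 or 3 (edgeR adjusted p = 0.0865, 0.0890 and 0.0964) or combination replicate 2 (edgeR adjusted p = 0.0716).

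The activating NKG2 chains that pair with CD94 gave smaller differences. Klrc2, encoding NKG2C, had 3.76, 3.89 and 3.09 CPM in monotherapy and 9.84, 7.39 and 6.14 CPM in the combination. The groups do not overlap, but with a log2 fold change of 1.12 ± 0.23 (SE) Klrc2 missed the threshold (edgeR adjusted p = 0.0556), and it passed in 6 of 14 other settings, DESeq2 among them (adjusted p = 0.00150; 0.000433 to 0.298 over all settings). Klrc3, encoding NKG2E, had few reads, with 4, 20 and 26 counts in monotherapy and 26, 16 and 25 in the combination. These overlap, and the log2 fold change of 0.56 ± 0.58 (SE) has a 95% interval of -0.75 to 1.87 (edgeR adjusted p = 0.935).

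Within each library, the balance of Klrc1 to its partner was compared, which needs no scaling between libraries. Per kilobase, the ratio of Klrc1 to Klrd1 was 0.0225, 0.0191 and 0.0223 in monotherapy and 0.0609, 0.0813 and 0.0576 in the combination. The groups lie apart, with means of 0.0213 ± 0.00192 and 0.0666 ± 0.0128 (SD, n = 3 each). The exact two-sided permutation p was 0.1, the smallest that 3 against 3 allow, and 0.167 after Benjamini-Hochberg adjustment over 5 such ratios.

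Klrc1 also weighed more against Klrc2, subject to the uncertain split of reads. There were 2.20, 1.52 and 1.80 Klrc1 counts per Klrc2 count in monotherapy and 3.15, 4.40 and 2.34 in the combination (exact permutation p = 0.1, adjusted 0.167). As a share of the counts of all 3 Klrc genes, Klrc1 took 68.1%, 57.4% and 60% in monotherapy and 74.5%, 80.6% and 67.9% in the combination. These shares overlap by 1 library on each side (exact permutation p = 0.2, adjusted 0.25). Klrd1 took 86.5%, 85.5% and 83.8% of the counts of all 10 receptors in monotherapy and 79.8%, 74.9% and 73.4% in the combination, with no overlap (exact permutation p = 0.1, adjusted 0.167).

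**Figure D2:**
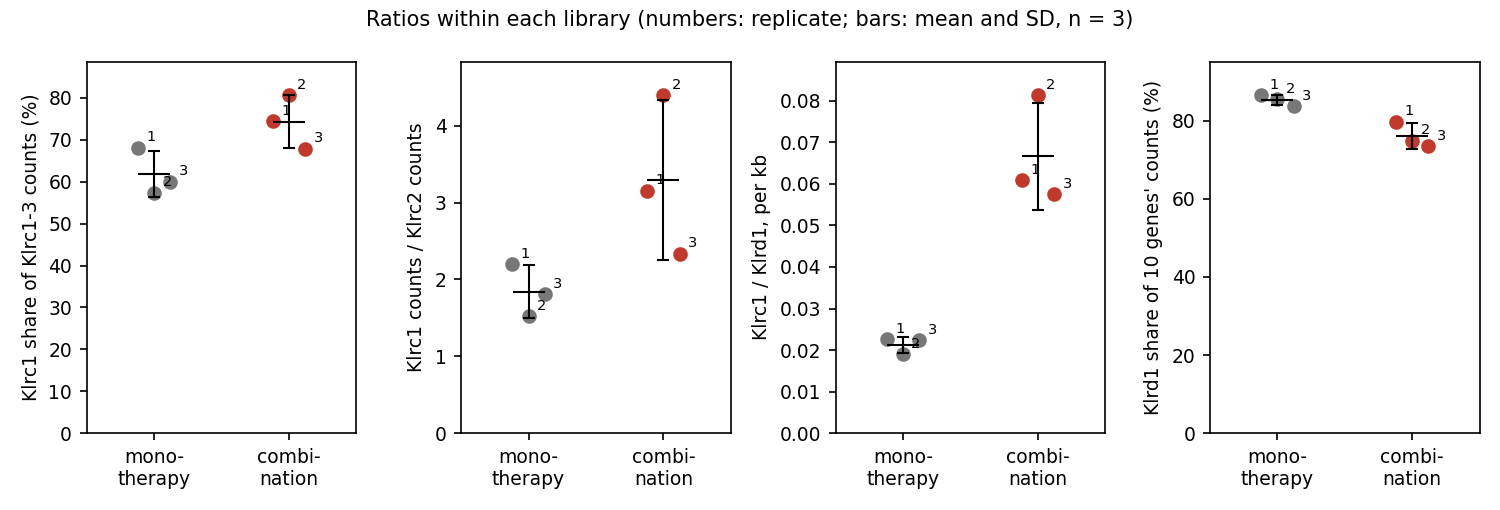
Ratios within each library, by group, with the replicate number beside each point and the mean and SD (n = 3) in black; axes start at 0. The ratio of Klrc1 to Klrd1 per kilobase lies between 0.0191 and 0.0225 in monotherapy and between 0.0576 and 0.0813 in the combination, while the Klrc1 share of Klrc counts overlaps between groups.

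NKG2D showed a smaller and tighter difference. Klrk1 had 16.9, 16.4 and 16.1 CPM in monotherapy and 20.9, 24.8 and 24.9 CPM in the combination. The groups do not overlap, and combination replicate 3, low for Klrc1 and Klrd1, is here the highest. The fold change was 1.43, with a 95% interval of 1.16 to 1.76, and it did not pass (edgeR adjusted p = 0.164) in the reported fit or in any of 14 other settings. The ratio of Klrk1 to Klrd1 per kilobase ran from 0.0127 to 0.0178 in monotherapy and from 0.0113 to 0.0276 in the combination (exact permutation p = 0.7, adjusted 0.7).

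Klre1 and the KLRI genes encode chains that pair with each other. In rat NK cells KLRE1 forms an inhibitory receptor with KLRI1 and an activating one with KLRI2. Klre1 had 4.51, 4.67 and 3.31 CPM in monotherapy and 15.2, 15.3 and 8.73 CPM in the combination. The groups do not overlap, and combination replicate 3 is again the lowest of its group. The log2 fold change was 1.65 ± 0.25 (SE; edgeR adjusted p = 0.0161), which is 3.14-fold with a 95% interval of 2.12-fold to 4.65-fold. It passed in 10 of 14 other settings, with adjusted p from 1.18e-11 (edgeR, no count filter) to 0.116.

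Both partners were much lower. Klri1 had 14, 11 and 6 counts in monotherapy and 30, 24 and 23 in the combination, and Klri2 had 23, 21 and 12 against 41, 56 and 29. Neither pair of groups overlaps in CPM. The fold changes were 2.64 for Klri1 (95% interval 1.24 to 5.63) and 2.38 for Klri2 (95% interval 1.20 to 4.74), and neither passed (edgeR adjusted p = 0.393 and 0.408).

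Klrb1c, encoding the NK cell antigen NK1.1, had 2.34, 1.65 and 1.98 CPM in monotherapy and 3.34, 3.43 and 1.89 CPM in the combination. The groups overlap through combination replicate 3, and the log2 fold change was 0.54 ± 0.30 (SE), with a 95% interval of -0.14 to 1.21 (edgeR adjusted p = 0.773). Klrg1, encoding an inhibitory receptor of terminal effector cells that binds cadherins, was at the edge of detection. It had 3, 3 and 2 counts in monotherapy and 8, 23 and 9 in the combination, too few for the filter. The sums of 8 and 40 counts give a depth-scaled ratio of 5.33, with an exact 95% interval of 2.46 to 13.2 that covers counting error only. Over samples, the exact permutation p for Klrg1 was 0.1.

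**Figure D3:**
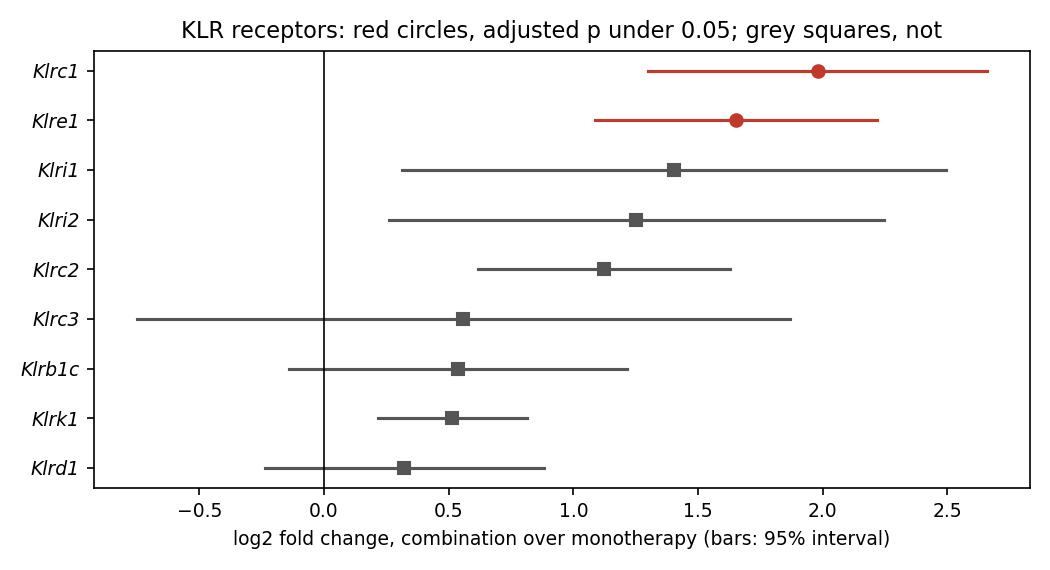
Log2 fold change of the combination over monotherapy for the 9 tested receptors, with 95% intervals from the edgeR fit; red circles have an adjusted p under 0.05 and grey squares do not. Klrc1 at 1.98 and Klre1 at 1.65 are the called genes, and the intervals of Klrc3, Klrb1c and Klrd1 cross 0.

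Of 21 adaptor and signalling genes of these and related receptors, 20 were tested, 0 rose and 0 fell, with a median log2 fold change of 0.06. Those with the smallest p were Sh2d1a, encoding the adaptor SAP, at 0.72 ± 0.27, Pik3r1, a PI3K subunit, at 0.30 ± 0.13, Tyrobp, encoding DAP12, at 0.69 ± 0.35, and the kinase gene Zap70 at 0.21 ± 0.14 (SE). Hcst, encoding the NKG2D adaptor DAP10, had 59.5 and 61.7 CPM in the 2 groups, and Ptpn6, encoding SHP-1, 428 and 475. Tyrobp lay at 0.964 and 1.57 CPM, and the groups of all 3 genes overlap.

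Of the ligand genes 16 were found and 7 tested, and 0 passed in either direction (median -0.10). H2-T23, encoding Qa-1, had 492 ± 49.7 and 446 ± 68.0 CPM (SD, n = 3 each). Cdh1, encoding E-cadherin, a KLRG1 ligand, had 4.58 ± 0.877 and 2.07 ± 0.544 CPM, with no overlap between groups, and did not pass (edgeR adjusted p = 0.112). Cdh2, encoding another cadherin, and H60b, a ligand gene of NKG2D, had log2 fold changes of 1.24 ± 0.63 and -0.30 ± 0.30 (SE).

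Of 21 tested transcription factor genes 1 rose, against 0.951% of all tested genes. It was Tbx21, encoding T-bet, with 11.3 ± 2.88 CPM in monotherapy and 33.0 ± 2.56 CPM in the combination (SD, n = 3 each; edgeR adjusted p = 0.00691). Its relative Eomes had 120 ± 8.83 and 173 ± 20.8 CPM and did not pass (edgeR adjusted p = 0.189), and Stat4 and Id2 had log2 fold changes of 0.35 ± 0.21 and -0.37 ± 0.22 (SE). Of 16 tested non-KLR receptors of NK and innate-like CD8+ T cells 2 rose, against 0.951% of all tested genes. Both lists were chosen with earlier results of these data known. The receptors were the IL-18 receptor chain gene Il18rap, with a log2 fold change of 1.25 ± 0.13, and Slamf7, of the SLAM family, with 1.07 ± 0.15 (SE). Slamf7 did not pass without any 1 of the monotherapy libraries or combination replicate 2 (edgeR adjusted p = 0.0570 to 0.0862). Il2rb, encoding a chain of the receptors for IL-2 and IL-15, had 0.76 ± 0.15 (SE; edgeR adjusted p = 0.0515), and Cd160 had 0.86 ± 0.21 (SE; edgeR adjusted p = 0.138).

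Between the outermost members on chromosome 6 lay 97 other tested genes, of which 2 rose and 1 fell, or 3.09%, against 1.08% of all tested genes. They were the mitosis gene Cdca3, BC035044 and, as the one that fell, Tspan9. From Klrb1c to Klri2 there were 12 other tested genes, of which BC035044 rose (log2 fold change 1.26 ± 0.24, SE), and the median over all 12 was -0.04. The call of BC035044 ended in limma-voom (adjusted p = 0.0546) and without any 1 of the monotherapy libraries or combination replicate 2 (edgeR adjusted p = 0.146 to 0.239), and that of Cdca3 without any 1 of the monotherapy libraries (edgeR adjusted p = 0.0730 to 0.0976). From Klre1 to Klri2 no other gene had enough counts to be tested. Beyond Klri2 lie the Ly49 genes, which are close copies of each other. Of 11 tested Ly49 genes 4 rose, against 0.951% of all tested genes. They were Klra6, Klra10, Klra13-ps and Klra3, with log2 fold changes of 1.36 to 1.93. Klrb1f and Klrg2, the other Klr genes tested, did not pass. Klra13-ps passed in every setting tried. Klra6 did not pass without any 1 of the monotherapy libraries or combination replicate 2 (edgeR adjusted p = 0.107 to 0.136), and Klra10 did not without monotherapy replicates 1 or 3 (edgeR adjusted p = 0.0549 and 0.0501). Klra3 did not pass in limma-voom (adjusted p = 0.0905) or without any 1 library other than combination replicate 3 (edgeR adjusted p = 0.0521 to 0.199).

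**Figure D4:**
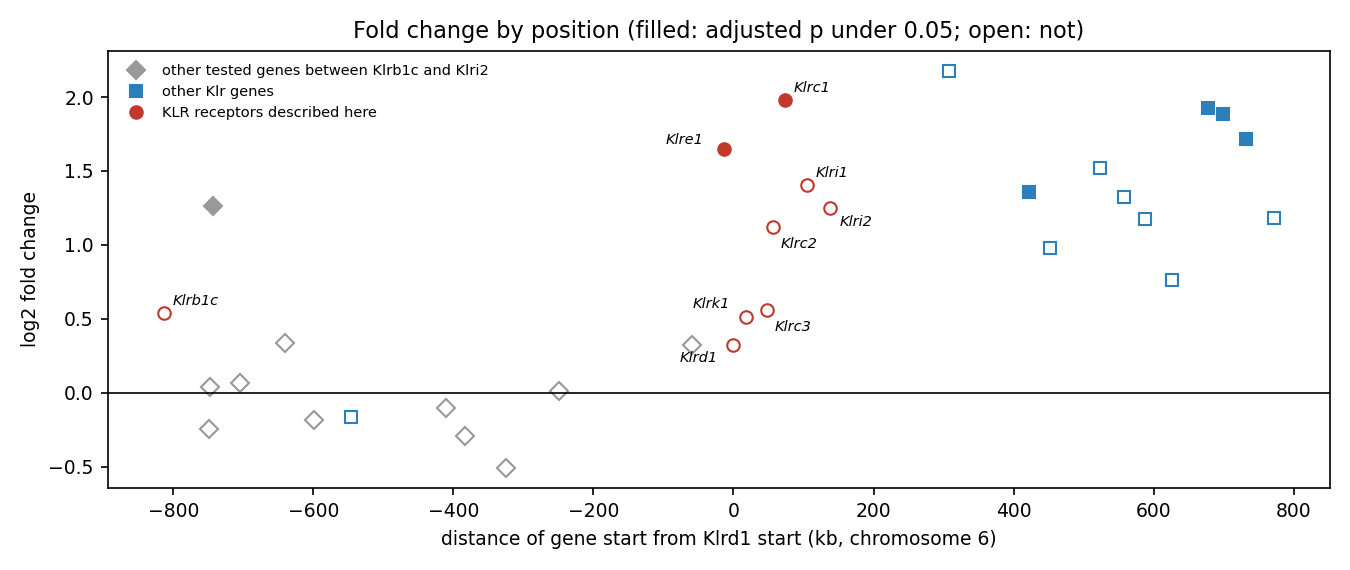
Log2 fold change by distance of each gene's start from that of Klrd1 on chromosome 6, in kb; red circles are the receptors described here, blue squares the other Klr genes, grey diamonds other tested genes, filled where the adjusted p is under 0.05. The receptors from Klre1 to Klri2 and the Ly49 genes to the right lie above 0, and most genes between Klrb1c and Klre1 lie near 0.

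RefSeq promoters on GRCm38.p6 were found for 7 of the 10 members and those of Klrc1, Klrc2, Klrc3, Klrk1 and Klre1 are shown, whole or in part; that of Klrb1c, which also held a match, is not. Motifs were searched on both strands in the 250 bases before the start. The Runx motif TGTGGT occurred in 6 of the 7 (all but Klri1, and for Klre1 before 1 of its starts), against 14.0% of 32851 promoters. Members were counted as genes with a match before any start, while the background counts each promoter, 32851 for 27025 genes. The T-box core AGGTGT occurred in 0 of 7, against 11.8% of promoters, and so did the STAT motif TTCNNNGAA (7.02% of promoters) and the AP-1 motif TGANTCA (6.75%). Klrc2 and Klrc3 each held 2 matches. Only the Runx motif was found, so no match overlaps another motif. The Klrc3 stretch ends 50 bases before the start and leaves its second match out. Capitals mark the Runx motif, read 5′ to 3′ on the gene's strand. The stretches are chr6:129678974-129679223 for Klrc1, chr6:129623865-129624114 for Klrk1 and chr6:129643338-129643538 for Klrc3, whose RefSeq start is its first coding base, all on the minus strand.
Klrc1: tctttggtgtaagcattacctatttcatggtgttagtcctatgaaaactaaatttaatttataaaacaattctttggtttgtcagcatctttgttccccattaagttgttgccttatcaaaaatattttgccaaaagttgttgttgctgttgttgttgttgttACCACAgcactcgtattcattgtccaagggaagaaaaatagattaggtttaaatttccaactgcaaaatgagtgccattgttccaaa
Klrk1: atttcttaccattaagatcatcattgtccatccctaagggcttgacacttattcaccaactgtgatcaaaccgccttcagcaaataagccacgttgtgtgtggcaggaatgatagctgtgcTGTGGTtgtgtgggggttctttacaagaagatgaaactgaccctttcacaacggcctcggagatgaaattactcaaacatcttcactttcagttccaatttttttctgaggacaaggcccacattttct
Klrc3: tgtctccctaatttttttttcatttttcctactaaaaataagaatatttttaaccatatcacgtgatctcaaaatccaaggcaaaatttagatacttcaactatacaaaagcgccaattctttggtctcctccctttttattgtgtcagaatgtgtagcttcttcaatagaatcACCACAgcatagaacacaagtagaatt
For Klrc2 (chr6:129660615-129660644, minus strand) and Klre1 (chr6:129577972-129578001, plus strand), 30 bases around the first match are given. Both stretches lie inside the annotated span of their gene given above. The match of Klrb1c and the second match of Klrc3 also lie inside their genes.
Klrc2: ttcaatagaatcACCACAgcatagaacaca
Klre1: ttgtgtttaagcTGTGGTtccagagagtca
The 30 bases of Klrc2 occur unchanged in the Klrc3 stretch, so these copies are not independent. A match is a description of letters. Runx3 had 156 and 186 CPM in the 2 groups and Runx1 37.9 and 40.9, and neither passed.

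The genes most like Klrc1 in pattern were found by the root mean square difference of centred log2 CPM over the 6 libraries, among 9889 genes with a mean of at least 2 CPM. The closest were Klra3 at 0.167, Ctla2b at 0.175, Gzmm at 0.207 and Klre1 at 0.245. Klrc2 ranked 43, Klrb1c 183, Klrd1 407 and Klrk1 421. Like Klrc1, these closest genes have their lowest combination value in replicate 3, which their choice by likeness to Klrc1 favours. The 6 libraries share a single contrast, so this likeness rests on few points.

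Library totals ran from 34568074 to 40101346 counts. The sort label was checked: Cd8a lay at 1533 CPM in monotherapy and Cd4 at 2.58. Of 10 NK cell markers 8 were tested and 0 passed. Of the 8, 7 had a log2 fold change above 0 and 1 below, with a median of 0.84. The summed level of all 10 was 6.02 to 8.05 CPM in monotherapy and 9.48 to 13.6 CPM in the combination, without overlap. The list includes the Ly49 genes Klra4, Klra8 and Klra9, and no marker was at 0 in all libraries, although the chymase gene Cma1 was at 0 in 3. The smallest p belonged to Klra8, Klra9, Fcgr3 and Klra4, with log2 fold changes of 1.52 ± 0.41, 1.18 ± 0.39, 1.06 ± 0.38 and 0.98 ± 0.48 (SE), and the groups of the first 3 do not overlap. Ncr1, which encodes the NK receptor NKp46, was the marker below 0, with 13, 2 and 11 counts in monotherapy and 6, 11 and 5 in the combination, and its groups overlap. The part of NK cells in the receptor values was not tested. Markers of NKT and γδ T cells summed to 33.2 to 38.0 CPM in monotherapy and 31.1 to 34.2 in the combination, with 0 of 8 passing. CD4 T cell, B cell and myeloid sums overlapped between groups, with 0 of 4, 0 of 6 and 0 of 6 tested markers passing. The B cell sum was 471 to 545 CPM in monotherapy and 474 to 584 CPM in the combination. Most of it was the immunoglobulin gene Ighm, with means of 467 and 509 CPM. Erythrocyte and platelet genes summed to 1.74 to 5.89 CPM in monotherapy and 0.475 to 1.52 CPM in the combination, with 0 of 2 passing.

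Transcripts of pigment cells were found in a part of the combination libraries. Dct, a pigment-synthesis gene, had 0 counts in every monotherapy library and in combination replicate 1, and 301 and 377 counts in combination replicates 2 and 3. The summed level of 6 such markers was 20.9 to 27.1 CPM in monotherapy and 29.0 to 52.8 CPM in the combination, most of it Pmel. In combination replicate 1 the whole sum of 29.0 CPM was Pmel. The groups overlap for Pmel, with a log2 fold change of 0.18 ± 0.16 (SE). Combination replicate 1, without Dct, had 31.1 CPM of Klrc1 and 15.2 CPM of Klre1, both above every monotherapy library. Without combination replicates 2 and 3 the log2 fold change was 2.23 for Klrc1 and 1.86 for Klre1, and 4 members passed, beside 6.51% of all genes. That fit holds 1 combination library, whose spread is taken from the monotherapy group. Whether the pigment cell transcripts bear on the receptor values was not tested.

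**Figure D5:**
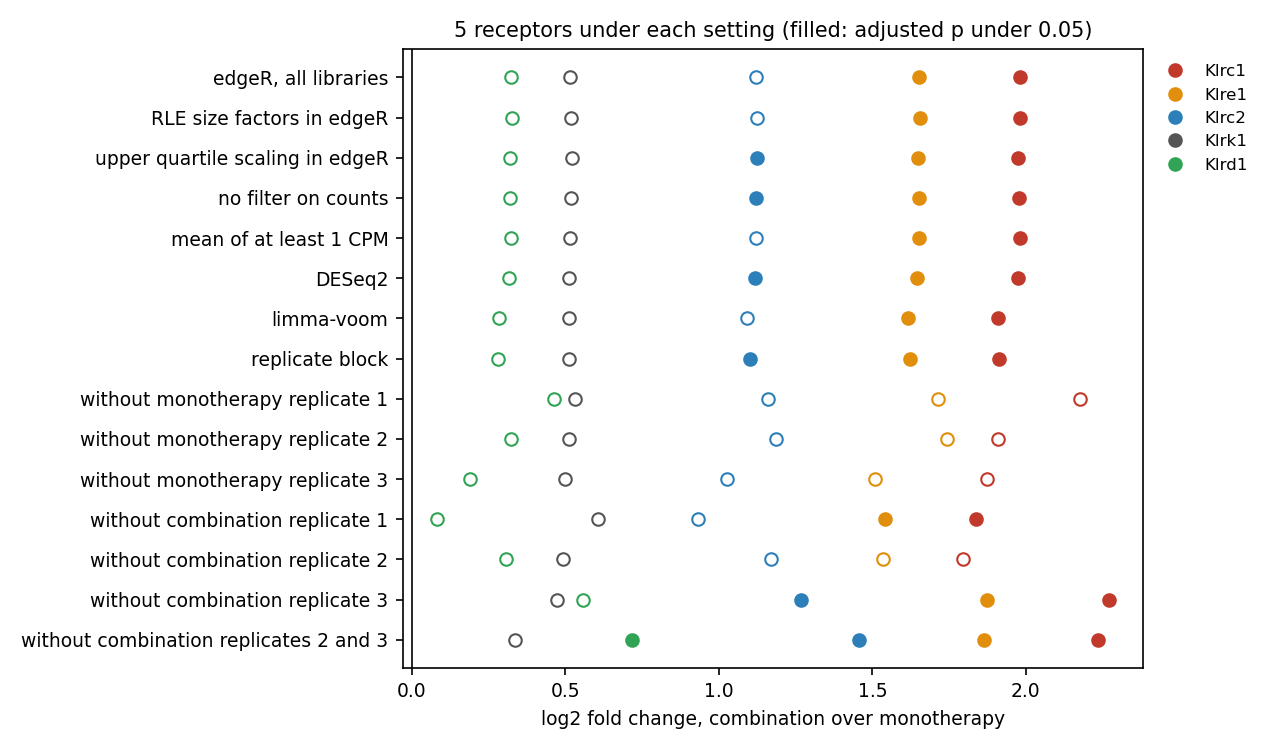
Log2 fold changes of 5 receptors under the reported edgeR fit (top) and each of 14 other settings, filled where the adjusted p is under 0.05. Klrc1 stays between 1.80 and 2.27 and all 5 genes stay above 0, while the calls of Klrc1 and Klre1 end in the 4 fits without a monotherapy replicate or combination replicate 2.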

How the data were processed

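RNA of sorted CD8+ T cells was Trizol-extracted and poly(A)-selected, per the labels' protocols. The submitters' processing notes name Subread 1.5.2 with featureCounts, the aligner STAR 2.5.2b and DESeq2. Their settings, the use of strand and the annotation release were not given in the sources used here. Deposited values are raw counts of reads per gene, as the authors made them, and were identical in the series table and the per-library files for 6 of 6 libraries. A further 6 columns matched no sample and were not used.

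In R 4.3.3, edgeR 4.0.16 with filterByExpr (15142 genes kept) and TMM factors of 0.901 to 1.12 compared the groups by a quasi-likelihood test without covariates, adjusted over all tested genes. CPM are TMM-scaled. Standard errors came from the coefficient and its F statistic. Ratios and low counts were compared by exact permutation tests. The fit was tested on simulated data. Alternatives were other scalings and filters, DESeq2 1.42.0, limma-voom (limma 3.58.1), a replicate block and left-out libraries.

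Named genes were all 10 members, up to 4 genes of each pathway list with the smallest p and every called one, called genes between the outermost members, the other tested Klr genes as a count, and the 5 genes most like Klrc1 (clone-style names and receptor segments excepted), of which 1 is not reported here. Hcst, Ptpn6, Runx1, Runx3 and the cell type markers named (Cd8a, Cd4, Ighm, Dct, Pmel, Cma1 and the NK markers) were picked after their values were seen. Members and lists were chosen with earlier results of these data known. Counting intervals cover counting error only. Of the 49056 genes found in GENCODE M21, 91.4% had equal coordinates.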

Additional observations from a re-analysis of the deposited data

How the results depend on the processing

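All 9 tested members kept a log2 fold change above 0 in every setting in which they were tested. In edgeR over all genes, 144 genes were higher and 20 lower. The counts were 340 and 113 with no filter on counts, 258 and 59 in DESeq2, 231 and 57 with the replicate block, and 985 and 756 without combination replicates 2 and 3, and the cause was not tested. Leaving out single libraries gave 25 to 239 higher and 2 to 53 lower genes. Members called higher numbered 0 to 3 when single libraries were left out and 4 without combination replicates 2 and 3. The replicate block, no filter, upper quartile scaling and DESeq2 each added Klrc2 to Klrc1 and Klre1. The labels do not say that equal replicate numbers pair the mice, so the reported fit had no pairing. Deviations from the group means of same-numbered libraries correlated at 0.145, -0.0551 and 0.279. Replicates 1 and 3 correlated best with their own number and replicate 2 did not, which does not settle whether the numbers pair the mice. Over left-out libraries the difference in the Klrc1 share of Klrc counts was 9.35 to 15.7 percentage points, and that in the ratio of Klrc1 to Klrd1 0.0379 to 0.0498. With at most 30 counts in any library for Klri1, 26 for Klrc3 and 23 for Klrg1, depth limits the precision of these genes.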
